A study of Mus musculus with 2 samples.

Results

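The clustered histone genes are the genes that encode the linker histone H1 and the core histones H2A, H2B, H3 and H4 from the large histone gene clusters. They were taken as every gene in the deposited tables whose name starts with Hist1h, Hist2h, Hist3h or Hist4h, a rule that uses names and no measured value. Of 25815 genes with a molecule in either library, 64 met this rule, 59 for WT and 55 in the library labelled ATG5 KO. The mice carried tumours, and the inguinal lymph nodes that drain them were taken from WT mice (13 nodes) and from ATG5LEC-KO mice (9 nodes), in which ATG5, a gene of autophagosome formation, is removed from lymphatic endothelial cells (LECs). Both groups therefore carry a tumour, and immune cells and blood endothelial cells (BECs) of the knockout mice are not the labelled target of the deletion; the promoter that drives the deletion, the tumour and the age of the mice are not given in the sources used here. From the pooled nodes, viable CD31+ cells that lack CD45 and Ter119 (endothelium) and viable CD45+ cells that lack CD31 and Ter119 (leukocytes) were sorted and combined, which gave 1 single-cell library per genotype. No difference between genotypes therefore has a replicate check, no p-value is given, and every interval is a 95% interval for counting error only.

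Histone genes of this kind are transcribed mainly in S phase, when new chromatin has to be packed with newly made histones. Their classical mRNA lacks a poly(A) tail and ends just after a short stem-loop that is bound by the stem-loop binding protein Slbp. Some of these genes also give polyadenylated transcripts that run past the stem-loop, and such transcripts are known from resting and differentiated cells. The libraries were primed on poly(A), so that the counts below report captured, mainly polyadenylated molecules and not the whole histone mRNA of a cell.

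The stem-loop is shown for 5 members because it marks where the classical transcript would end. All 5 lie inside a longer annotated transcript (GENCODE M21 transcripts, GRCm38), and the capitals mark the 16 letters that form the stem and the loop.
Hist1h1c: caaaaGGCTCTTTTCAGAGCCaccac
Hist1h2ac: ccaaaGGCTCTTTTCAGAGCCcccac
Hist3h2a: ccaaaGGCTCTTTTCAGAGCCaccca
Hist1h4d: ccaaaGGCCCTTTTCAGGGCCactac
Hist1h4i: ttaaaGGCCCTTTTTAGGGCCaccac
These sites lie at chr13:23739507-23739532 on the plus strand, chr13:23683472-23683497 on the minus strand, chr11:58955167-58955192 on the plus strand, chr13:23581945-23581970 on the plus strand and chr13:22040961-22040986 on the minus strand. The annotated transcript runs on for 840 bases after the stem-loop in Hist1h1c, for 2010 bases in Hist1h2ac, for 1643 bases in Hist3h2a, for 770 bases in Hist1h4d and for 330 bases in Hist1h4i. Stem-loop letters of this form were found in the transcripts of 44 of the 64 members. Only annotated transcripts were searched, and several without the letters are short, such as Hist1h4k with 312 bases and Hist1h2bl with 381. A missing match therefore does not show that a gene lacks a stem-loop.

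Captured molecules were concentrated on few members. In the cells kept for analysis the 64 genes held 6854 UMIs (unique molecular identifiers, 1 per captured molecule), and 10 genes with at least 100 UMIs held 6187 of them (90.3%). Hist1h1c (2756 UMIs), Hist1h2bc (1480 UMIs) and Hist3h2a (653 UMIs) together held 71.3%. The next were Hist1h4i with 281, Hist1h2ac and Hist1h2be with 224 each, Hist1h1e with 204, Hist1h1b with 128, Hist2h2be with 122 and Hist1h4d with 115. The other 54 genes held 667 UMIs, between 1 and 77 each with a median of 5.

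By histone, the 6 H1 genes held 46.1% of the UMIs, the 16 H2B genes 29.6%, the 17 H2A genes 14.2%, the 13 H4 genes 7.97% and the 12 H3 genes 2.07%. Of the members, 51 lie on chromosome 13, 10 on chromosome 3, 2 on chromosome 11 and 1 on chromosome 6. For 30 members the annotation gives a transcript that runs more than 50 bases past the stem-loop or carries a poly(A) signal (AATAAA or ATTAAA) in its last 40 bases. These 30 held 5085 UMIs (74.2%) with a median of 24, and 8 of the 10 most counted genes were among them. The other 34 held 1769 UMIs with a median of 4, and 1480 of those UMIs came from Hist1h2bc, whose annotated transcript is spliced and holds no stem-loop letters. This grouping rests on where the annotated transcripts end, and how far those ends set the counts was not tested.

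**Figure D1:**
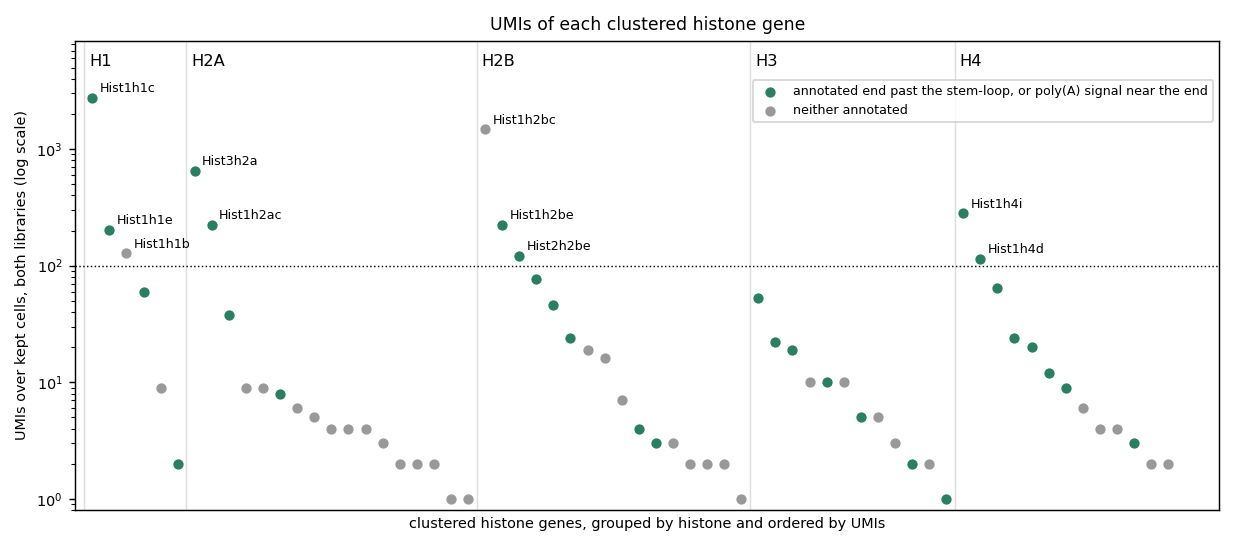
UMIs of each of the 64 clustered histone genes over the kept cells of both libraries (vertical axis, log scale), grouped by histone and ordered by UMIs within each group. Green points are genes whose annotated transcript runs past the stem-loop or carries a poly(A) signal near its end, grey points are the others, and the dotted line marks 100 UMIs. The named genes above the line are the 10 with at least 100 UMIs, and Hist1h2bc and Hist1h1b are the grey ones among them.

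Several members share reads or positions in ways that limit what their names mean. Core histone genes of the same type have similar coding sequences, so their molecules may be assigned mostly by the 3' end, which was not tested. Hist1h2bc spans 8710 bases at chr13:23684199-23692908, the reads counted include intronic ones, and its start lies 250 bases from that of Hist1h2ac, which is read in the other direction. Hist1h2be (chr13:23583670-23621124, minus strand) overlaps Hist1h1e on the same strand, and Hist3h2a (chr11:58954685-58956830) lies inside Trim17 on the same strand, so the counts of these genes are uncertain in that respect.

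The promoters of Hist1h1b and Hist1h1c and the stretch shared by Hist1h2ac and Hist1h2bc are shown because these genes differed in the cells where they were counted. They are read towards the gene (RefSeq, GRCm38), and capitals mark 4 motifs on either strand. The motifs are the CCAAT box, the TATA box with the letters TATAAA, the element AAACACA known from H1 promoters and the octamer ATTTGCAT known from H2B promoters. On the other strand the CCAAT box reads ATTGG, and the octamer there reads ATGCAAAT. Hist1h1b was counted mainly in cycling cells, Hist1h1c was counted widely, and the stretch between Hist1h2ac and Hist1h2bc serves both genes and is read here towards Hist1h2ac.
Hist1h1b: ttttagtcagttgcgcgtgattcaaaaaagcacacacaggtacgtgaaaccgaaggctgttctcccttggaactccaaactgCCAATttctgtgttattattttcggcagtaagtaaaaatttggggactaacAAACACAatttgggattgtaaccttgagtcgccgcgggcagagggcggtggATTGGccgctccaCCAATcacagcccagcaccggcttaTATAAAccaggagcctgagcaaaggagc
Hist1h1c: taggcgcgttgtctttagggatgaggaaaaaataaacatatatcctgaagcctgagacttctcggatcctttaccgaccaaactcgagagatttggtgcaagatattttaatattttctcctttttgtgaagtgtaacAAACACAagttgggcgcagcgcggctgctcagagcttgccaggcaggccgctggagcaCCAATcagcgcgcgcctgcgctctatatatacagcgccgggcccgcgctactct
Hist1h2ac to Hist1h2bc: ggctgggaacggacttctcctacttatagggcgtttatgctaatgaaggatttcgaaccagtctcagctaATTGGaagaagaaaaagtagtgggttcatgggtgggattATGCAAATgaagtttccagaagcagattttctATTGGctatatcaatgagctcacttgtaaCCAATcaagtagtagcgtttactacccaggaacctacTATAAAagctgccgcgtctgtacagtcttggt
The windows lie at chr13:21780626-21780875 (minus strand), chr13:23738557-23738806 (plus strand) and chr13:23683960-23684198 (minus strand). Of the 70 clustered histone genes in the annotation, 61 matched a promoter in the RefSeq table by name, and each was searched over 250 bases on both strands. CCAAT was in 50 of them (82.0%, against 33.8% of all 32851 promoters), TATAAA in 28 (45.9%, against 12.4%), the octamer in 13 (21.3%, against 1.60%) and AAACACA in 8 (13.1%, against 6.25%). The octamer was found in H2A and H2B promoters and not in those of H1, H3 or H4, and AAACACA in 4 of 5 H1 promoters. Divergent H2A and H2B genes share such windows, so these promoters are not independent, and a match is a description of letters.

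The libraries were close in depth, with 23649554 UMIs for WT and 23089918 in the KO-labelled one, and 3845 and 4121 cells were kept. Cells were named from markers, with the histone genes kept out of the clustering. LECs carried Prox1 at 1333 and 1344 CPM (UMIs scaled to the class total without mitochondrial genes) and BECs carried Flt1 at 2228 and 2371 CPM. Cd79a in B cells (3242 and 2719 CPM) and Cd3e in T cells (749 and 642 CPM) marked the lymphocytes. Mki67, a proliferation marker, lay at 1285 to 2239 CPM in the cycling classes and at or below 29.1 CPM elsewhere. The cycling classes were small, with 62 and 35 endothelial cells, 27 and 23 B cells and 19 and 29 T cells, and the cycling T cells also carried the eosinophil genes Prg2, Ear1 and Epx among their leading genes. Atg5 itself was counted with 227 UMIs (40.7 CPM) in WT LECs and 69 UMIs (45.0 CPM) in KO-labelled LECs, a ratio of 1.106 (0.832 to 1.45). The labels do not give the deleted exon, and 3' counts need not read it, so the counts do not check the deletion, and the second library is called KO-labelled. The nodes came from both sexes in unequal mixtures: 79.5% of WT B cells that could be assigned were male against 50.7% in the KO-labelled library, and 71.2% against 49.7% of LECs.

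Among non-cycling LECs, BECs, B cells and T cells, B cells had the most clustered histone UMIs and BECs the fewest. In the WT library the summed level of all members was 470 CPM in B cells, 177 CPM in T cells, 145 CPM in LECs and 82.0 CPM in BECs. In the KO-labelled library it was 274 CPM in B cells, 193 CPM in LECs, 137 CPM in T cells and 78.8 CPM in BECs, so LECs and T cells changed places. Barcodes with 20 to 100 UMIs, taken as empty, held members at 130 and 94.0 CPM, above the BECs and below the T cells and LECs. These barcodes hold free RNA, and its part in the class levels was not tested.

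A list of members seen outside S phase (Hist1h1c, Hist1h2bc, Hist2h2be, Hist3h2a, Hist3h2ba and Hist4h4), chosen with earlier results on these cells known, held most of these UMIs. Its share of the summed level was 85.5% and 84.5% in non-cycling endothelial cells, 85.5% and 73.9% in B cells, and 72.1% and 62.7% in T cells. In cycling cells the share was 57.7% and 39.0% in endothelial cells, 35.6% and 61.0% in B cells, and 36.1% and 20.97% in T cells. The share was lower in cycling than in non-cycling cells in each of these 6 comparisons, and the intervals overlapped in none of them. The 61.0% in KO-labelled B cells rests on 1 cell, which held 83 of the 111 listed UMIs, and without it the share was 33.3% (28 of 84 UMIs, 23.4% to 44.5%).

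The members outside that list were higher in cycling cells in each cell type and library. In endothelial cells they lay at 18.0 CPM when not cycling and 92.8 CPM when cycling in the WT library, a ratio of 5.14 (3.59 to 7.24), and at 19.1 and 123 CPM in KO-labelled cells, a ratio of 6.46 (4.22 to 9.74). In B cells the ratios were 2.87 (2.12 to 3.85) and 3.13 (2.38 to 4.07), and in T cells 6.91 (5.29 to 8.98) and 4.94 (3.89 to 6.24). All these intervals lay above 1. For the listed members the ratios were 1.19 and 0.755 in endothelial cells, 0.269 and 1.73 in B cells and 1.504 and 0.779 in T cells, below 1 in 3 of the 6. Without the same cell the 1.73 became 0.478 (0.316 to 0.696), so that 4 of the 6 lay below 1, and the 3.13 of the other members became 2.71 (1.99 to 3.61).

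The 54 rarely counted members showed the same direction when added up. Over the 195 cycling cells they had 148 UMIs and over the 7319 non-cycling endothelial, B and T cells 438 UMIs, a ratio of CPM of 4.67 (3.85 to 5.63). Of the 54 genes, 42 had a UMI in a cycling cell and 46 in a non-cycling one, although cycling cells held 6.75% of the UMIs of all genes in these classes.

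Single members were compared where both groups together held at least 20 UMIs, and a member was counted as higher or lower in cycling cells at 2-fold. Few endothelial members could be compared: 7 in the WT library, of which Hist1h1e and Hist1h4i were higher (8.4% of all genes compared were higher) and none was lower (11.8% of all genes were), and 4 in the KO-labelled library, of which Hist1h1e was higher (9.86% of all genes) and Hist1h2bc and Hist3h2a were lower (13.2% of all genes). In B cells 3 of 9 members were higher in the WT library (14.7% of all genes) and 4 of 10 in the KO-labelled one (15.3%), and 3 were lower in each (18.1% and 19.2%). In T cells 5 of 8 (12.8%) and 4 of 10 (12.6%) were higher, and none (18.5%) and 1 (15.4%) were lower. Hist1h1e was higher in all 6 comparisons, and Hist1h1b and Hist1h4i were higher in all 4 lymphocyte comparisons. Without the 1 KO-labelled B cell, 2 in place of 4 members were higher there, with Hist1h2bc at 1.21 (0.611 to 2.18) and Hist1h4i at 1.55 (0.546 to 3.61).

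**Figure D2:**
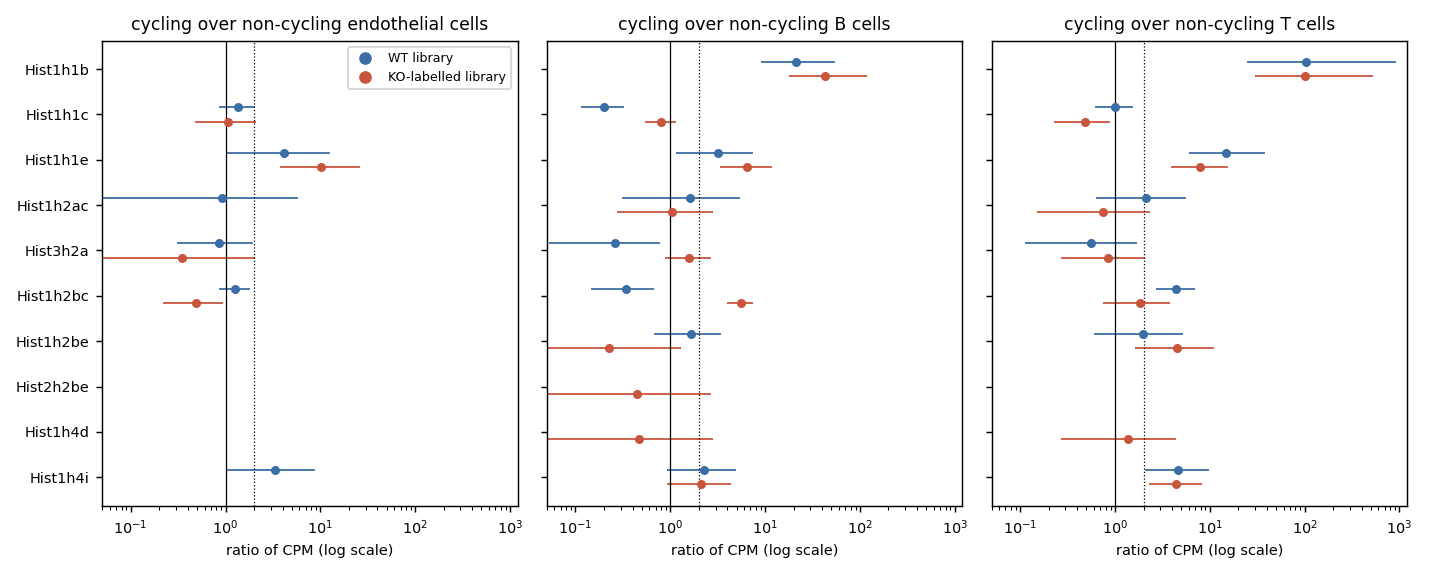
Ratio of CPM in cycling over non-cycling endothelial cells, B cells and T cells (horizontal axes, log scale) for the 10 most counted members, with exact 95% intervals for counting error. Blue is the WT library and red the KO-labelled library, the solid line marks 1 and the dotted line 2, and a gene with fewer than 20 UMIs over both groups, or with 0 in the cycling cells, has no point. Hist1h1b, Hist1h1e and Hist1h4i lie to the right of the dotted line wherever they have a point (Hist1h4i in KO-labelled B cells only with the 1 cell named in the text), whereas Hist1h1c lies left of it throughout.

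Hist1h1b, a linker histone gene, had the largest ratios of cycling over non-cycling levels in B cells and T cells among the members compared. Most cycling cells of each class had no UMI of it. It was found in 5 of 62 and 3 of 35 cycling endothelial cells and in 7 of 27 and 4 of 23 cycling B cells. Among cycling T cells it was found in 8 of 19 and 9 of 29. No UMI was found in 1283 WT and 677 KO-labelled non-cycling endothelial cells, which allows a share of up to 0.234% and 0.443% of cells with a UMI and levels of up to 0.363 and 0.763 CPM. Cycling endothelial cells held 5 UMIs (10.5 CPM) for WT and 7 UMIs (24.0 CPM) in the KO-labelled one, above those limits. Of the 7 KO-labelled UMIs 5 came from 1 cell, without which the level was 7.40 CPM. Cycling B cells held 17 and 24 UMIs (57.4 and 75.6 CPM) against 9 and 7 UMIs (2.69 and 1.76 CPM) in other B cells, ratios of 21.3 (8.99 to 54.3) and 42.9 (17.9 to 118). Cycling T cells held 18 and 21 UMIs (65.3 and 54.1 CPM) against 2 and 3 UMIs in all other T cells, with ratios of 103 (24.7 to 917) and 100 (29.9 to 525). The libraries did not differ beyond counting error, with KO-labelled over WT ratios of 1.32 (0.679 to 2.61) in cycling B cells and 0.828 (0.420 to 1.65) in cycling T cells.

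Hist1h1e, another linker histone gene, was also higher in cycling cells but was found outside them as well. Cycling endothelial cells held 4 UMIs (8.44 CPM) for WT and 9 UMIs (30.8 CPM) in the KO-labelled one, against 17 UMIs (2.06 CPM) and 12 UMIs (3.05 CPM) in non-cycling ones. These gave ratios of 4.10 (1.003 to 12.6) and 10.1 (3.76 to 26.1). In B cells the ratios were 3.16 (1.15 to 7.52) and 6.44 (3.37 to 11.9), and in T cells 14.9 (6.04 to 37.96) and 7.95 (3.93 to 15.5), so the interval lay above 1 in each lymphocyte comparison. Of the 13 UMIs in WT cycling T cells 6 came from 1 cell, without which the level was 27.5 in place of 47.1 CPM. Of the 15 in KO-labelled ones 5 came from 1 cell (27.0 in place of 38.6 CPM).

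Hist1h1c, the most counted linker histone gene (chr13:23738808-23740367, plus strand), was counted in every class. In the WT library it lay at 271 CPM in B cells (906 UMIs, in 384 of 1298 cells), 79.7 CPM in T cells (252 UMIs), 42.5 CPM in LECs (237 UMIs) and 21.997 CPM in BECs (59 UMIs). In the KO-labelled library it lay at 125 CPM in B cells (497 UMIs, in 282 of 1505 cells), 53.6 CPM in T cells (298 UMIs), 50.3 CPM in LECs (77 UMIs) and 15.01 CPM in BECs (36 UMIs). The order from B cells to BECs was the same in both libraries, with T cells and LECs of the KO-labelled library close to each other, and empty barcodes held 34.5 and 18.1 CPM.

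B cells exceeded endothelial cells in Hist1h1c 7.55-fold (6.61 to 8.64) and 4.35-fold (3.54 to 5.39), and T cells 3.40-fold (2.95 to 3.92) and 2.33-fold (2.02 to 2.70). LECs exceeded BECs 1.93-fold (1.45 to 2.62) and 3.35-fold (2.23 to 5.12). The share of cells with a Hist1h1c UMI was 29.6% and 18.7% in B cells, 15.3% and 11.2% in T cells and 19.3% and 20.7% in LECs. LECs are the deepest of these classes (medians of 8192 and 7999 UMIs, against 2670 and 2692 in B cells). With cells thinned to 3000 UMIs the shares were 26.6% and 16.7% in B cells, 11.3% and 9.32% in T cells and 10.4% and 9.28% in LECs, so B cells stayed highest. Cells under 3000 UMIs were left out of these shares. They were 831 of 1298 and 967 of 1505 B cells and 353 of 955 and 507 of 1601 T cells, but 42 of 695 and 9 of 203 LECs. The thinned B cells are therefore the deeper ones.

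Hist1h1c was not 2-fold higher in the cycling cells of any class. In endothelial cells the ratio of cycling over non-cycling was 1.35 (0.844 to 2.07) for WT and 1.07 (0.478 to 2.11) in the KO-labelled one. Cycling B cells held 16 UMIs (54.0 CPM) in the WT library, 0.199 (0.114 to 0.326) of the level in other B cells. In the KO-labelled library they held 32 UMIs (101 CPM), a ratio of 0.805 (0.545 to 1.15), and 25 of these 32 came from 1 cell, without which the ratio was 0.193 (0.0773 to 0.401). In T cells the ratios were 1.001 (0.616 to 1.55) and 0.480 (0.228 to 0.896).

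Among the H2A genes, Hist3h2a was the most counted and was in no comparison 2-fold higher in cycling cells. It lay at 39.1 and 32.0 CPM in B cells (131 and 127 UMIs), 19.3 and 15.1 CPM in T cells (61 and 84 UMIs), 16.7 and 14.4 CPM in LECs (93 and 22 UMIs) and 10.4 and 7.09 CPM in BECs (28 and 17 UMIs), the same order in both libraries. In cycling B cells it had 3 UMIs in the WT library, a ratio of 0.259 (0.0527 to 0.773), and 16 in the KO-labelled one, a ratio of 1.58 (0.874 to 2.66), with 8 of the 16 in 1 cell, without which it was 0.864 (0.365 to 1.76). Hist1h2ac, which shares its start region with Hist1h2bc, was rare in BECs (3 and 0 UMIs) and was counted in T cells at 8.54 and 10.3 CPM, B cells at 6.28 and 12.1 CPM and LECs at 2.87 and 11.8 CPM.

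Hist1h2bc, an H2B gene, was the member most counted in LECs. In the WT library it lay at 61.5 CPM in LECs (343 UMIs), 31.7 CPM in BECs (85 UMIs), 79.8 CPM in B cells (267 UMIs) and 21.5 CPM in T cells (68 UMIs). In the KO-labelled library it lay at 96.6 CPM in LECs (148 UMIs), 42.5 CPM in BECs (102 UMIs), 34.2 CPM in B cells (136 UMIs) and 11.3 CPM in T cells (63 UMIs). B cells were thus above LECs for WT and below LECs and BECs in the KO-labelled one, and T cells were lowest in both. Empty barcodes held 35.0 and 19.8 CPM.

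LECs exceeded BECs in Hist1h2bc 1.94-fold (1.53 to 2.49) and 2.27-fold (1.75 to 2.95). Cycling went with a different direction by class and library: the ratios were 1.26 (0.846 to 1.82) and 0.485 (0.219 to 0.935) in endothelial cells, 0.338 (0.145 to 0.676) and 5.52 (4.002 to 7.53) in B cells, and 4.38 (2.68 to 6.98) and 1.82 (0.752 to 3.81) in T cells. The 5.52 rests on 1 cell, which held 48 of the 60 UMIs, and was 1.21 (0.611 to 2.18) without it.

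Hist1h2be and Hist2h2be, the other H2B genes with at least 100 UMIs, were highest in B cells among non-cycling LECs, BECs, B cells and T cells. Hist1h2be lay at 16.4 and 14.1 CPM in B cells (55 and 56 UMIs), against 1.94 and 1.78 CPM in endothelial cells (16 and 7 UMIs), ratios of 8.48 (4.79 to 15.9) and 7.92 (3.60 to 20.6). Empty barcodes held it at 13.7 and 23.6 CPM, and the part of free RNA in its B cell level was not tested. Hist2h2be (chr3:96221119-96223738, plus strand) lay at 8.37 and 7.05 CPM in B cells (28 UMIs in each library), against 0.547 and 1.65 CPM in empty barcodes. In LECs it had 18 UMIs (3.23 CPM) for WT and 1 UMI (0.653 CPM) in the KO-labelled one. T cells held 10 UMIs (3.16 CPM) and 13 UMIs (2.34 CPM) of it. It was not found in the cycling endothelial or cycling B cells of the WT library and had 3 UMIs and 1 UMI in those of the KO-labelled one.

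H3 genes were rare, with no member above 53 UMIs (Hist2h3c1), so no H3 member is described on its own. Among the H4 genes, Hist1h4i was higher in cycling cells. Cycling T cells held 11 and 14 UMIs (39.9 and 36.0 CPM) against 27 and 45 UMIs (8.54 and 8.09 CPM) in other T cells, ratios of 4.67 (2.09 to 9.73) and 4.45 (2.26 to 8.26). The ratios were 2.26 (0.913 to 4.89) and 2.12 (0.921 to 4.34) in B cells, whose intervals include 1 (1.55 for KO-labelled B cells without the 1 cell), and 3.35 (1.004 to 8.86) in WT endothelial cells, while KO-labelled endothelial cells held too few UMIs to compare (7 in cycling and 6 in other cells). Hist1h4d was seen at 2.09 CPM in WT B cells (7 UMIs) and 6.80 CPM in KO-labelled ones (27 UMIs), and at 4.75 and 5.58 CPM in T cells.

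**Figure D3:**
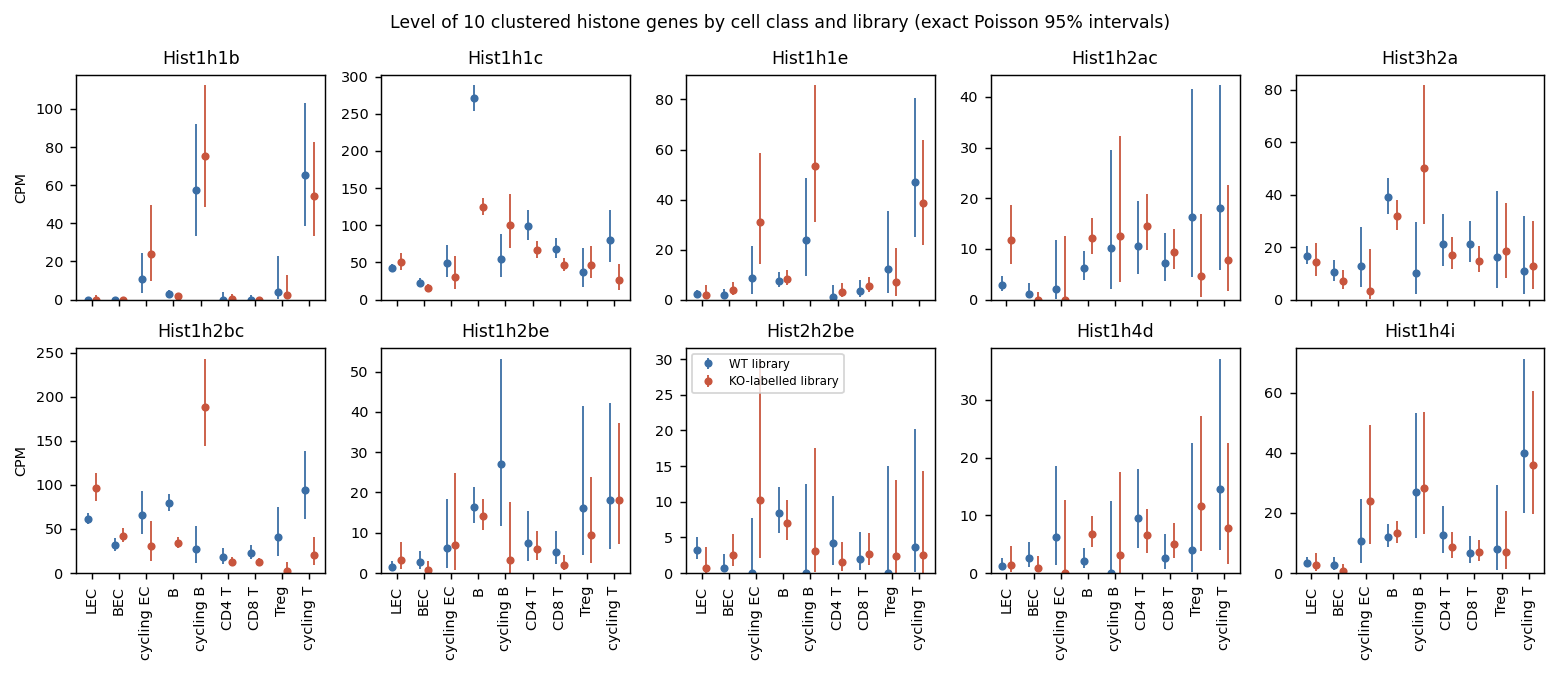
Level of the 10 most counted members (vertical axes, CPM of the class total without mitochondrial genes) in 9 cell classes of the WT library (blue) and the KO-labelled library (red), with exact Poisson 95% intervals. Each panel has its own vertical scale. Hist1h1b is near 0 outside the cycling classes, Hist1h1c is highest in WT B cells at 271 CPM, and Hist1h2bc in LECs is higher in the KO-labelled library (96.6 against 61.5 CPM).

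Against endothelial cells as a whole, more members were at least 2-fold higher in lymphocytes than the reverse. In B cells 8 of 11 members compared were higher in the WT library (16.5% of all genes were) and 8 of 9 in the KO-labelled one (18.4%), and none was lower (33.2% and 30.4% of all genes). In T cells 5 of 9 (16.4%) and 5 of 10 (18.2%) were higher, and Hist1h2bc was the 1 lower member in both libraries (31.6% and 28.9% of all genes). Totals in these ratios are those of each class, and cells of the classes differ in depth.

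Cycling cells were split by an S and a G2/M gene list into S-like cells (47 WT and 50 KO-labelled) and G2/M-like cells (61 and 37), a range and not a type, with 19 cells within 20% of the split. The S list holds replication genes such as Mcm5 and Pcna, and the G2/M list mitotic genes such as Ccnb1 and Cdc20. Hist1h1b had 58 UMIs in S-like and 34 in G2/M-like cells of both libraries, an S over G2/M ratio of 1.67 (1.08 to 2.64), with 1.19 (0.607 to 2.33) for WT and 2.15 (1.13 to 4.397) in the KO-labelled one. Hist1h2bc had 15 and 127 UMIs and was 8.63-fold (5.04 to 15.9) higher in G2/M-like cells, or 5.52-fold (3.15 to 10.3) without the 1 KO-labelled B cell. Hist1h1c had 24 and 88 UMIs and was 3.74-fold (2.36 to 6.14) higher in G2/M-like cells, or 2.75-fold (1.70 to 4.61) without that cell.

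For Hist1h2bc the level was 11.6-fold (4.29 to 43.8) higher in G2/M-like cells for WT and 8.36-fold (4.38 to 17.6) in the KO-labelled one. The KO-labelled value rests mostly on the same 1 B cell, which held 48 of the 66 UMIs in G2/M-like cells, against 11 UMIs in S-like cells. A ratio of that library alone without the cell is not given. The sum over members outside the list had an S over G2/M ratio of 0.596 (0.433 to 0.813) for WT and 0.955 (0.718 to 1.27) in the KO-labelled one, below 1 in the former and with an interval that includes 1 in the latter. Hist1h1e had 32 and 33 UMIs, a ratio of 0.951 (0.566 to 1.60).

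Genes of the histone pathway outside the clusters were read from 3 lists: replacement variants of histones, factors that process histone mRNA, and chaperones that carry histones to DNA. In cycling WT endothelial cells 4 of 9 variants, 3 of 10 processing factors and 5 of 12 chaperones were at least 2-fold higher (8.4% of all genes compared were). In the KO-labelled ones 3 of 9, 6 of 10 and 7 of 12 were higher (9.86%). In cycling B cells the counts were 5 of 9, 6 of 10 and 11 of 12 for WT (14.7%) and 5 of 9, 6 of 10 and 10 of 12 in the KO-labelled one (15.3%). In cycling T cells they were 5 of 9, 2 of 10 and 8 of 12 for WT (12.8%), and 5 of 9, 4 of 10 and 8 of 12 in the KO-labelled one (12.6%). The chaperone gene Daxx in cycling WT T cells was the 1 gene of these lists that was lower in any of these 6 comparisons (11.8% to 19.2% of all genes were). The medians of the lists were 0.49 to 2.31 on the log2 scale, against -0.08 to 0.00 over all genes compared. In cycling WT endothelial cells Slbp was 3.31-fold, the histone chaperone gene Asf1b 22.5-fold, the variant H2afz 4.16-fold and the centromeric variant Cenpa 37.1-fold higher. Between genotypes no list had more than 1 gene past 1.5-fold higher, or more than 1 lower, in non-cycling LECs, BECs, B cells or T cells. The chaperones in LECs had 1 of each, with Daxx higher and Chaf1a lower. Over all genes 11.4% were higher and 13% lower in LECs. In BECs, B cells and T cells 5.18% to 6.51% of all genes were higher and 6.07% to 9.36% lower. In cycling endothelial cells 5 of 9 variants (H2afv, H2afx, H2afj, H1f0 and Cenpa) were lower in the KO-labelled library (17.1% of all genes were) and none was higher, with a list median of -0.65 on the log2 scale. There 3 of 9 processing factors (Npat, Lsm11 and Cpsf3) and 3 of 11 chaperones (Chaf1a, Hira and Daxx) were higher (16.2% of all genes), and Cstf2 was lower. In cycling T cells the variants H2afx and Cenpa and the chaperone Chaf1b were lower (13.6% of all genes) and Npat and Daxx higher (16% of all genes). In cycling B cells H1f0, Cstf2 and Nelfe were higher (13.4% of all genes) and Chaf1b lower (14.3%).

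Between the libraries, members were counted as different at 1.5-fold. In LECs, the cells in which ATG5 is removed, 2 of 5 members compared were higher in the KO-labelled library (11.4% of all genes were) and none was lower (13% of all genes). Hist1h2bc was 1.57-fold (1.29 to 1.91) higher, at 96.6 against 61.5 CPM, and Hist1h2ac, which is read from the same start region, was 4.09-fold (1.97 to 8.58) higher, at 11.8 CPM (18 UMIs) against 2.87 CPM (16 UMIs). Hist1h1c differed by less than the fold used, with a ratio of 1.18 (0.902 to 1.53), as did Hist3h2a at 0.861 (0.515 to 1.38). By sex the Hist1h1c ratio was 0.948 (0.610 to 1.43) in male LECs and 1.66 (1.01 to 2.71), past the fold, in female ones. The mixture of LEC kinds was not the same in both libraries. The sub-cluster led by Fst, Ccl7 and Pard6g had 87 WT cells and 0 KO-labelled cells, so it enters only the WT level. It held 17 Hist1h2bc UMIs (25.2 CPM), against 54.7 to 83.1 CPM in WT cells of the other 6 sub-clusters. Its part in the ratio of 1.57 was not tested. Among these other 6, each with at least 10 Hist1h2bc UMIs over both libraries, the ratio was above 1 in 4 and below 1 in 2. Ratios ran from 0.444 (0.0742 to 1.95, on 7 and 3 UMIs) to 3.12 (1.89 to 5.19). The other ratio below 1 was 0.710 (0.423 to 1.20), so both of these intervals include 1. So does that of 1 sub-cluster above 1, at 1.60 (0.984 to 2.52).

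The LEC values stand beside other differences between the libraries whose part was not tested. The ratio for Hist1h2bc was 1.71 (1.30 to 2.22) in male and 1.64 (1.097 to 2.44) in female LECs, so it was as large within each sex. Fos lay at 3630 CPM in WT and 1566 CPM in KO-labelled LECs and the heat shock gene Hspa1a at 381 and 215 CPM, both lower in the KO-labelled library while Hist1h2bc was higher. In BECs none of the 3 members compared passed 1.5-fold in either direction (6.51% and 9.36% of all genes were higher and lower), and Hist1h2bc had a ratio of 1.34 (0.996 to 1.81).

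In B cells 2 of 11 members were lower in the KO-labelled library (6.07% of all genes were) and 2 were higher (5.18%). Hist1h1c lay at 0.462 (0.413 to 0.516) of the WT level and Hist1h2bc at 0.429 (0.346 to 0.530). Hist1h2ac was 1.93-fold (1.13 to 3.39) and Hist1h4d 3.25-fold (1.38 to 8.84) higher, so the members of the divergent pair Hist1h2ac and Hist1h2bc went in opposite directions here and in the same direction in LECs. The other 7 members had ratios between 0.817 and 1.12. Members outside the list had a summed ratio of 1.05 (0.879 to 1.25).

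The B cell ratios of Hist1h1c and Hist1h2bc were farther from 1 in female than in male cells, a difference that was not tested. Hist1h1c lay at 221 CPM in male WT and 170 CPM in male KO-labelled B cells, a ratio of 0.770 (0.647 to 0.915), and at 302 and 73.9 CPM in female B cells, a ratio of 0.245 (0.184 to 0.326). Hist1h2bc had ratios of 0.717 (0.512 to 0.997) in male and 0.139 (0.0835 to 0.226) in female B cells. In male cells neither Hist1h1c nor Hist1h2bc passed the 1.5-fold limit, although both lay below 1. Hist3h2a went the other way. Its ratio was 0.535 (0.339 to 0.827) in male B cells, past the limit, and 1.35 (0.663 to 3.01) in female ones. How far sex, animal or pool sets these differences cannot be told apart.

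Other measures moved with the B cell result. Empty barcodes differed in the same direction, at 0.526 (0.335 to 0.815) for Hist1h1c and 0.565 (0.365 to 0.864) for Hist1h2bc, and Hspa1a in B cells was 1061 CPM in the WT and 582 CPM in the KO-labelled library. Fos went the other way in B cells, at 1839.5 CPM for WT and 2091 CPM in KO-labelled cells. The part of these in the result was not tested. Across the 10 B cell sub-clusters Hist1h1c was lower in 9, with ratios of 0.352 to 1.001 and a median of 0.466. It was highest in the sub-cluster led by Hspa1a, Hspa1b, Ccl4 and Egr2 (418 and 207 CPM) and next in WT cells of the sub-cluster led by the interferon-induced genes Ifit3, Ifit1 and Ifit2 (375 and 132 CPM). The sub-cluster led by Cyyr1 was level, at 114 CPM in each library. The interval of its Hist1h1c ratio included 1. So did those of the sub-clusters led by Nr4a3 (0.902, 0.564 to 1.45) and by Cp (0.622, 0.349 to 1.09).

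**Figure D4:**
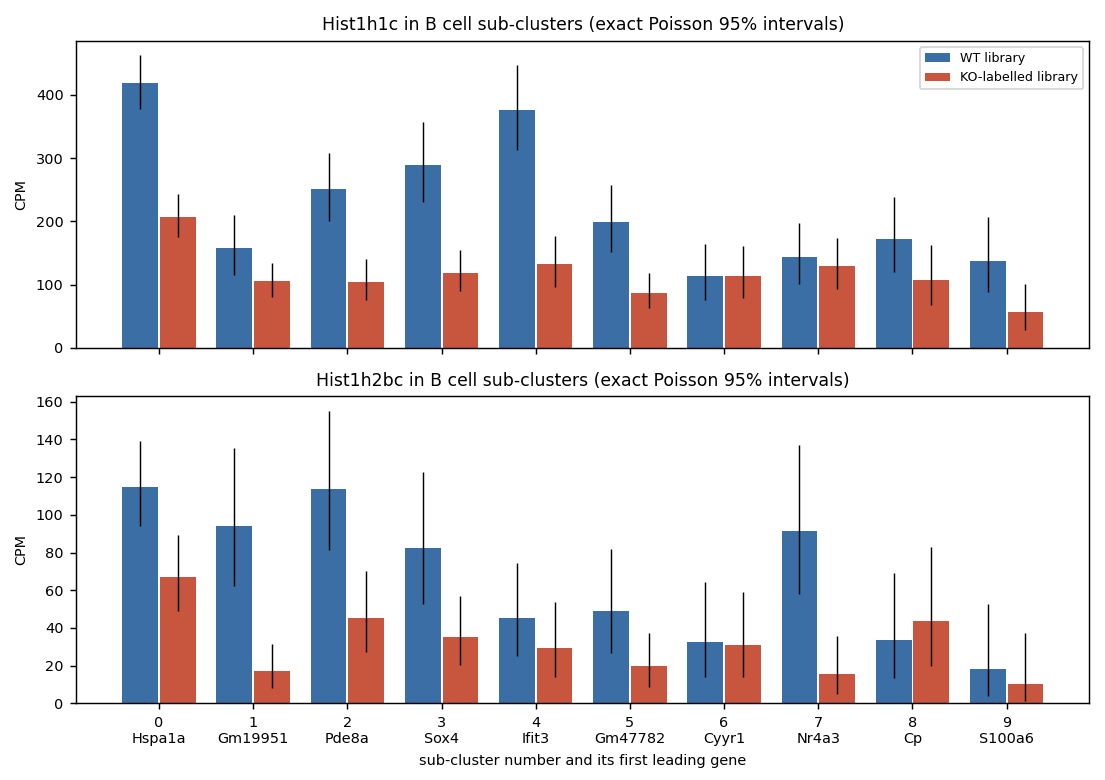
Level of Hist1h1c (top) and Hist1h2bc (bottom) in the 10 B cell sub-clusters, in CPM on axes that start at 0, for the WT library (blue) and the KO-labelled library (red), with exact Poisson 95% intervals; each sub-cluster is labelled by its number and first leading gene. Hist1h1c is lower in the KO-labelled library in 9 of 10 sub-clusters and level in the one led by Cyyr1. For the sub-clusters led by Nr4a3 and Cp the interval of the ratio includes 1.

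In T cells 2 of 11 members were lower in the KO-labelled library (6.14% of all genes were) and Hist1h1e was the 1 higher member (5.36%), with 27 against 10 UMIs and a ratio of 1.53 (0.720 to 3.55) whose interval includes 1. Hist1h2bc had a ratio of 0.527 (0.368 to 0.753), and 0.484 (0.266 to 0.860) in male cells. Hist1h2be had a ratio of 0.431 (0.236 to 0.777), which became 1.07 in male cells alone. Hist1h1c had a ratio of 0.672 (0.566 to 0.798), short of the limit, with 0.678 (0.516 to 0.893) in CD4 T cells and 0.688 (0.525 to 0.904) in CD8 T cells. By sex its ratio was 0.905 (0.687 to 1.19) in male T cells and 0.464 (0.301 to 0.725), past the limit, in female ones. None of the 6 members compared in CD4 T cells passed the fold (8.89% of all genes were higher and 7.6% lower), and in CD8 T cells Hist1h2bc, at 0.519 (0.309 to 0.866), was the 1 lower member of 5 (6.62% of all genes) and none was higher (7.18%).

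**Figure D5:**
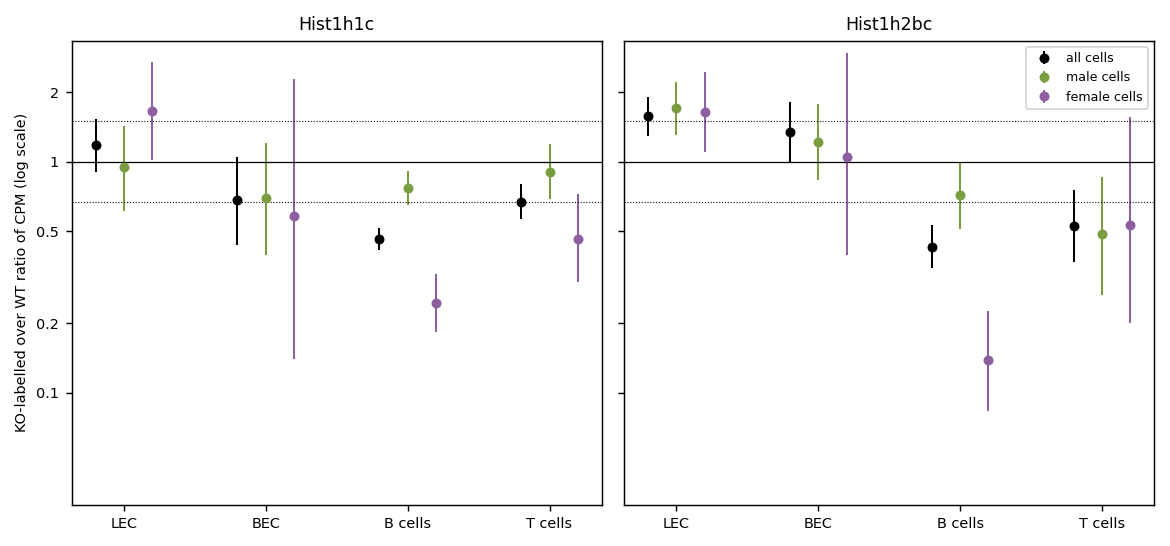
Ratio of CPM in the KO-labelled over the WT library (vertical axis, log scale) for Hist1h1c and Hist1h2bc in LECs, BECs, B cells and T cells, over all cells (black), male cells (green) and female cells (purple), with exact 95% intervals for counting error. The solid line marks 1 and the dotted lines 1.5-fold in either direction. Hist1h2bc is above 1 in LECs and below 1 in B and T cells, and both genes lie farther below 1 in female than in male B cells.

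Among cycling cells few members could be compared between the libraries. In cycling endothelial cells Hist1h1c (0.636, 0.259 to 1.43) and Hist1h2bc (0.472, 0.198 to 1.02) were both past 1.5-fold lower (17.1% of all genes were) and both intervals include 1. More LEC than BEC markers were carried by 21 of the 62 WT and 6 of the 35 KO-labelled cycling endothelial cells, and Hist1h2bc was higher in LECs than in BECs, and the part of this mixture was not tested. Among non-cycling endothelial cells 695 of 1283 WT and 203 of 677 KO-labelled cells were LECs, so ratios of cycling over non-cycling endothelial cells compare unlike mixtures as well. In cycling T cells 2 of 5 members were lower (13.6%), Hist1h1c at 0.323 (0.136 to 0.710) and Hist1h2bc at 0.218 (0.0855 to 0.497). In cycling B cells 3 of 4 members were higher (13.4%), led by Hist1h2bc at 6.998-fold (3.33 to 17.0). A single KO-labelled cell of 30198 UMIs held 98 of the 182 member UMIs of that class. Without it Hist1h2bc had a ratio of 1.54 (0.577 to 4.33), Hist1h1c one of 0.448 (0.156 to 1.15) where it had been 1.87 (0.994 to 3.64), and the sum of all members one of 0.956 (0.701 to 1.30) where it had been 1.89.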

How the data were processed

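Single-cell libraries of WT and ATG5 KO lymph nodes, 1 per genotype, were analysed. Per the file headers, the authors processed the reads with the BD Rhapsody WTA pipeline 1.11, and mm10 is the build per the submitters' processing notes. The deposited values are whole-number counts per barcode and gene without normalization, and the molecule counts after the pipeline's correction of substitution errors were used. Intronic reads were not excluded, per the file headers.

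Cells were called on the UMI rank curve (4065 and 4339 barcodes with at least 1281 and 1330 UMIs). Cells under 200 genes or over 25% mitochondrial UMIs were left out, and Scrublet called and removed 28 and 29 doublets. The remaining 3845 and 4121 cells, 13 of whose barcodes occur in both libraries, were clustered with scanpy 1.11.5 (Python 3.11.15, 2000 variable genes without histone genes, 30 components, 15 neighbours, Leiden resolution 1). Clusters were named from marker lists, and names mean resemblance to those markers. The thresholds for cycling and mixed clusters were set after the clusters were seen, and 79 and 72 mixed cells and 102 and 136 others were left out of the classes. Sex was read from Xist and Y-linked UMIs.

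UMIs were summed per class and library, and CPM uses class totals without mitochondrial genes. Intervals are exact Poisson for levels, exact conditional binomial for ratios and exact Clopper-Pearson for shares; they treat UMIs as independent and leave out variation between cells. Ratios needed 20 UMIs over both groups, or 10 UMIs in sub-clusters, and limits for a count of 0 take 3 counts. The ratio script was tested on simulated data. All genes named by the rule were counted, and those with at least 100 UMIs were described. Members and lists were chosen with earlier results of these data known. Alternatives changed cell calling, filters, doublets, molecule correction, scaling, clustering, the cycling definition, the UMI minimum, depth and sex.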

Additional observations from a re-analysis of the deposited data

Results flagged for a closer look

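The KO-labelled over WT ratio of Hist1h2bc went in opposite directions in different cell classes of the same libraries, and the difference between the classes was not tested. It was 1.57 in LECs, 0.429 in B cells and 0.527 in T cells. Among cycling cells it was 6.998 in B cells and 0.218 in T cells, and the former rests mostly on 1 cell, without which it was 1.54.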

How the results depend on the processing

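Each library is the only one of its genotype, so no library could be left out. No paired analysis was possible because there is 1 library per genotype and the labels give no replicate numbers. Main results under an alternative setting stayed within the counting interval, or within 1.5 times the count, in 177 cases and did not in 40, and the cause of the latter was not tested unless fewer genes or cells explain it by construction. Members higher in cycling endothelial cells numbered 2 (WT) and 1 (KO-labelled), and 5 and 3 at a minimum of 10 UMIs, 0 and 0 at 50 UMIs or with cells thinned to 3000 UMIs, and 1 and 0 with at most 10% mitochondrial UMIs. In lymphocytes 8 and 8 calls became 1 and 4 at 50 UMIs, 1 and 3 when thinned, 5 (WT) with at most 10% mitochondrial UMIs, and 6 (KO-labelled) without 1 cycling B cell. Calls between libraries numbered 9 in non-cycling and 7 in cycling classes, with 17 and 11 at 10 UMIs, 1 in cycling classes at 50 UMIs, and 5 in non-cycling classes in male cells alone, where Hist1h2be in T cells turned from 0.431 to 1.07. The summed level in B over endothelial cells was 3.39 and 1.87 with 3000 barcodes per library and 3.44 (WT) with median-of-ratios scaling, and T over endothelial cells 1.61 and 1.26 without ribosomal protein genes. Cycling over other endothelial cells (WT) was 1.21 with 6000 barcodes and 1.20 with a score cut. The share held by the outside S phase list was 32.6% and 25.6% in cycling endothelial cells with 6000 barcodes, 70.7% in KO-labelled B cells with 3000 barcodes and 87.2% in WT B cells with at most 10% mitochondrial UMIs. The share of cells with a Hist1h1c UMI, thinned to 3000 and 2000 UMIs, was 10.4% and 7.01% (WT) and 9.28% and 6.5% (KO-labelled) in LECs, 26.6% and 25.1%, and 16.7% and 14.5% in B cells, and 11.3% and 9.34%, and 9.32% and 7.19% in T cells. Cells below the thinned depth were left out of these shares. With 6000 barcodes no cycling T cluster formed, so lymphocyte counts could not be given, and the 3000-barcode and mitochondrial settings kept the main cell names. Leaving out the 1 KO-labelled cycling B cell was chosen after seeing the data. Median-of-ratios scaling shifts all cycling over non-cycling ratios by 0.10 to 0.28 on the log2 scale. Depth limits members under 100 UMIs most.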

Other observations

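A Hist1h2bc UMI was found in a larger share of cells with a Hist1h1c UMI than of cells without one. In WT B cells 71 of 384 cells with a Hist1h1c UMI also had a Hist1h2bc UMI (18.5%), against 75 of 914 cells without (8.21%), and in KO-labelled B cells 36 of 282 (12.8%) against 59 of 1223 (4.82%). In LECs the shares were 48.5% and 23.2% for WT and 52.4% and 30.4% in the KO-labelled one. Median depth was 2714 and 2658 UMIs in WT B cells with and without Hist1h1c and 2628 and 2714 in KO-labelled ones, and 9194 and 7613 in WT LECs and 8621 and 7732 in KO-labelled LECs, so the LEC shares are given at unequal depth.

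Plasma-like cells, of which there were 7 and 14, held the highest Hist1h1c levels of any class, 341 CPM (26 UMIs) for WT and 442 CPM (82 UMIs) in the KO-labelled one. In each library 1 cell held much of this, 12 of the 26 and 43 of the 82 UMIs. Without that cell the WT level was 216 CPM, below the 271 CPM of WT B cells. The KO-labelled level was then 232 CPM, above the 125 CPM of KO-labelled B cells. All members together lay at 486 and 695 CPM in plasma-like cells. Without the cell with the most member UMIs they lay at 369 and 452 CPM, against 470 and 274 CPM in B cells. In LECs the Hist1h2bc level of the sub-cluster led by Igfbp5, Lcn2 and Pkhd1l1 was 68.8 CPM (56 cells) in the WT and 215 CPM (24 cells) in the KO-labelled library, and that of the sub-cluster led by H19, Mrc1 and Igf2 was 75.0 CPM (41 cells) and 53.3 CPM (79 cells). The sub-cluster led by Fst, Ccl7 and Pard6g had 87 WT cells and 0 KO-labelled cells and held 25.2 CPM.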
